A study of Mus musculus with 8 samples.

Results

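The proteasome subunit genes of the mouse were taken as the protein-coding genes whose GENCODE symbol begins with Psm, continues with 1 letter from a to g and then has a digit. The rule found 50 genes among 50599 records, and 4 pseudogenes with such symbols were left out. Of the 50, 49 encode subunits, activators, inhibitors or assembly chaperones of the proteasome. Psmc3ip matched by its name alone, since it encodes a factor of meiotic recombination, and it was kept in the counts because the rule finds it.

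The proteasome degrades proteins that carry ubiquitin chains. Its 20S core is a barrel of alpha rings, which gate the entry, and beta rings, which hold the catalytic sites, and the 19S regulatory particle on its end binds ubiquitin, unfolds the substrate and feeds it into the core. In cells exposed to interferon gamma, the immunoproteasome subunits Psmb8, Psmb9 and Psmb10 take the places of the constitutive catalytic subunits Psmb5, Psmb6 and Psmb7, which changes the peptides made for presentation by MHC class I. In heart muscle the ubiquitin-proteasome system is known for the turnover of damaged and contractile proteins.

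RNA sequencing of total RNA compared whole hearts of 4 wildtype and 4 Lrpprc knockout mice. All 8 animals were C57BL/6N males aged 12 weeks, and each library came from the heart of 1 mouse. The wildtype mice carried Lrpprc loxP/loxP without Cre, and the knockout mice carried Lrpprc loxP/loxP with Cre, with deletion in heart and skeletal muscle, for which the promoter that drives Cre is not given in the sources used here. Lrpprc binds mitochondrial mRNAs and keeps them stable, so the comparison asks how the transcriptome of the heart differs when that factor is lost.

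Lrpprc itself had 3424 to 3946 normalised counts in the wildtype libraries and 504.3 to 605.4 in the knockout libraries, or -2.67 on the log2 scale (standard error 0.10, DESeq2, adjusted p = 3.77e-153), so each library fitted its label. The libraries held 35218541 to 47743376 expected counts. Mitochondrial rRNA took 44.0% to 46.9% of them in the wildtype and 65.6% to 67.8% in the knockout, and for that reason the scaling between libraries was varied. Cardiomyocyte markers were abundant in every library, with summed normalised counts of 1103104 to 1213447 in the wildtype and 597141 to 768682 in the knockout, where 6 of 10 were lower and 1 was higher (15.5% lower and 18.2% higher among all records). The largest of these changes were those of Pln (-1.46), Ryr2 (-1.40) and Actc1 (-1.15).

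Most called proteasome genes were higher in the knockout heart. Of the 50 genes, 24 rose, 2 fell and 24 did not pass the threshold of an adjusted p under 0.05 (DESeq2, Benjamini-Hochberg over 19959 records), which is 48.0% higher and 4.0% lower, against 18.2% higher and 15.5% lower among all records tested (33.7% in either direction). The 24 rises lay mostly in the 20S core and the 19S particle, while the 2 falls, Psme1 and Psme4, encode proteasome activators. The median log2 fold change of the 50 genes was 0.37, against 0.02 for records with mean counts of 10 or more. In 29 genes every knockout library lay above every wildtype library, and in 3 every knockout library lay below, where 16.7% and 16.4% of all records did so.

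The scaling between libraries set where 0 lies. The median record stood at 0.02 with median-of-ratios size factors, at -0.28 when libraries were scaled to their totals, and at 0.44 when the totals excluded mitochondrial rRNA. Scaled to totals, the proteasome genes had a median of 0.07, with 14 higher and 5 lower (9.64% and 29.6% of all records). Scaled to totals without mitochondrial rRNA, their median was 0.79, with 42 higher and 0 lower (38.9% and 5.43% of all records). By edgeR 23 were higher and 2 lower (20.1% and 19.6% of all records). Relative to the median record, the proteasome genes stood at 0.35 with each of the 3 scalings. A change of scaling moves every record by nearly the same amount, so these values had to be close. Without knockout replicate 3 the same value was 0.22. Of the 26 called genes, 14 kept their call and direction under every alternative run, namely Psma5, Psmb1, Psmb5, Psmb10, Psmc1, Psmc2, Psmc6, Psmd4, Psmd8, Psmd9, Psmd11, Psmd13, Psmd14 and Psmg2. As a share of all counts the 50 genes made up 0.122% to 0.130% in the wildtype and 0.115% to 0.156% in the knockout, which overlap. Their summed TPM, which corrects each transcript for its length, did not overlap, with 957 to 1003 in the wildtype and 1101 to 1459 in the knockout.

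Knockout replicate 3 stood apart from the other knockout libraries. It was the highest of the 4 for 39 of the 50 genes, where that library was the highest for 33.8% of all records, and its summed proteasome TPM of 1459 compares with 1101 to 1211 in the other 3. Without it, 22 genes were higher and 2 lower (19.4% and 17.2% of all records), and the median log2 fold change was 0.23. Psma2 and Psmc5 lost their calls in that fit, with log2 fold changes of 0.19 (DESeq2, adjusted p = 0.0629) and 0.19 (DESeq2, adjusted p = 0.0505). That heart also had the lowest summed leukocyte marker count of all 8, 3507 against 7157 to 10842 in the other knockout libraries and 5085 to 6478 in the wildtype, and the highest summed cardiomyocyte marker count of the knockout. The part of these differences in the proteasome values was not tested, and in whole hearts fewer cells of a type and less RNA per cell cannot be told apart.

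**Figure D1:**
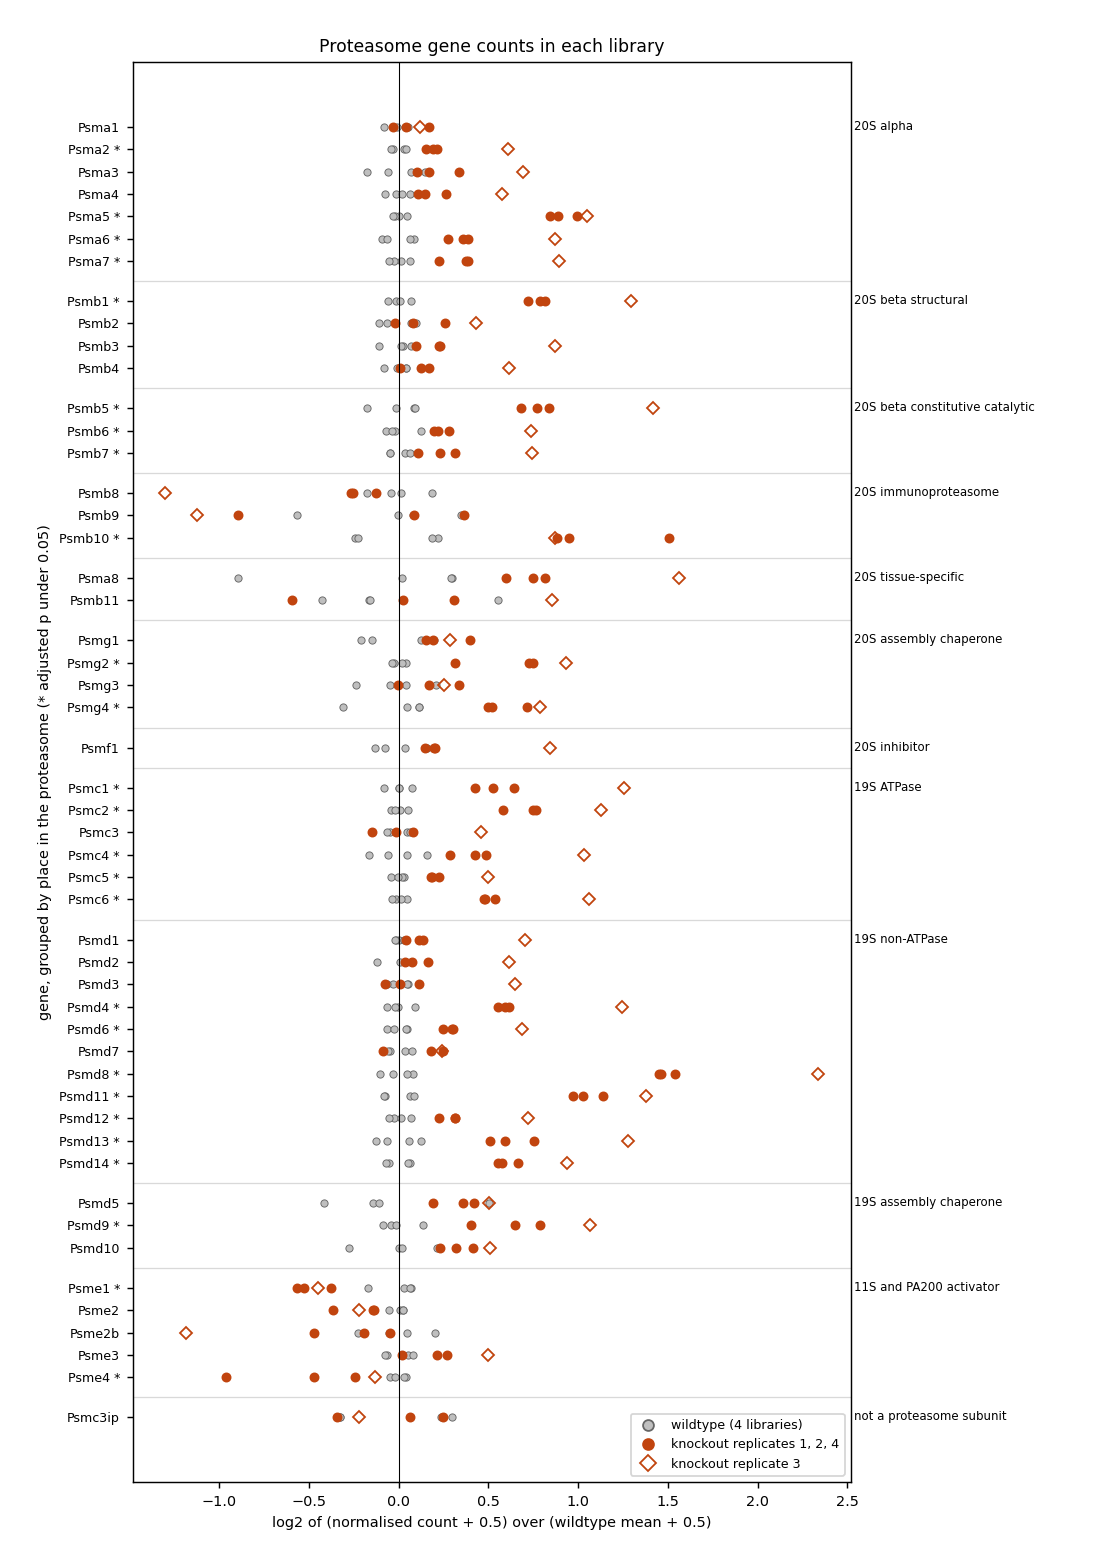
Each row is 1 proteasome gene and each point 1 library, plotted as the log2 ratio of its normalised count to the wildtype mean, with a pseudocount of 0.5 on both. Grey points are the 4 wildtype libraries, filled orange points knockout replicates 1, 2 and 4, and open diamonds knockout replicate 3, which is the highest knockout library for 39 of 50 genes; asterisks mark the 26 genes called by DESeq2.

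Stretches of promoter are shown for every proteasome gene found to hold the motif marked below, and for Psmb10 and Psmd8, which lack it. The share of matches among the stretches shown is thus set by this choice. All stretches are from RefSeq (GRCm38.p6), read 5′ to 3′ on the strand of the gene, within 250 bases before the RefSeq start and trimmed to bases outside annotated exons. The capitals mark TGACNNNGC on either strand, the core of the antioxidant response element, to which Nfe2l1 and Nfe2l2 are known to bind with small Maf proteins. Psmb5 (chr14:54618023-54618245, minus strand) and Psmb6 (chr11:70525107-70525356, plus strand) hold 1 match each. Psmb10 (chr8:105938445-105938642, minus strand) and Psmd8 (chr7:29180702-29180923, minus strand), the genes with the largest rises of the immunoproteasome and of the 19S particle, hold none in this window. Shorter windows show the matches of Psmc6 (chr14:45329577-45329625), Psmd9 (chr5:123228139-123228187) and Psmd12 (chr11:107479278-107479309), all on the plus strand.
Psmb5: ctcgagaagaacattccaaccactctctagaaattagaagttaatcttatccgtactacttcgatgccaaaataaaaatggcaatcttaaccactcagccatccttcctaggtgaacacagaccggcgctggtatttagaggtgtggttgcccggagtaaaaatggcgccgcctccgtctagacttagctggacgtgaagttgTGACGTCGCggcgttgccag
Psmb6: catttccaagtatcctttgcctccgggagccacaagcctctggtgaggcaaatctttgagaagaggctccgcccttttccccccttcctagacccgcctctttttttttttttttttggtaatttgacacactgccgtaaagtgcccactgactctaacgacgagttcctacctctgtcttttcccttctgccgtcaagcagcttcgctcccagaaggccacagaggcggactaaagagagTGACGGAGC
Psmb10: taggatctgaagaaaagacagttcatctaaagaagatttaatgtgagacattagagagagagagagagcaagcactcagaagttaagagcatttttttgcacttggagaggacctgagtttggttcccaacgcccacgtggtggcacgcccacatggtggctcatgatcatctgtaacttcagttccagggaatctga
Psmd8: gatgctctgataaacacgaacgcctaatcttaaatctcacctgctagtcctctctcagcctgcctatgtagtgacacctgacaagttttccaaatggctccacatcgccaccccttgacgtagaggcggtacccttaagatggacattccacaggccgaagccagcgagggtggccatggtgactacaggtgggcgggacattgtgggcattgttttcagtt
Psmc6: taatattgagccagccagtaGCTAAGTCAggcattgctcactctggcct
Psmd9: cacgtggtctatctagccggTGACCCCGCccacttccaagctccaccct
Psmd12: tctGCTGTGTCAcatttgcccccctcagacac
Of the 50 genes, 42 had a promoter in the RefSeq table. TGACNNNGC occurred in 5 of them, or 11.9%, against 11.5% of 27025 genes. Those 5 genes were Psmb5, Psmb6, Psmc6, Psmd9 and Psmd12. CCAAT, the site of the factor NF-Y, occurred in 15 (35.7% against 37.5% of all genes). The core of the interferon-stimulated response element, GAAA and again GAAA after any 2 bases, occurred in Psmb3, Psmd4 and Psmd9 (7.14% against 3.46%), and TGATGNAA, an amino acid response element, occurred in Psmd13 (2.38% against 3.91%). Both strands were searched. In 0 of the 42 promoters did matches of different motifs share a base. A match is a description of the sequence, and the share of proteasome promoters with TGACNNNGC was close to the share of all genes. All 5 genes with it were called higher, as were 16 of the 37 without it (18.2% of all records), a difference that was not tested.

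The 3 constitutive catalytic subunits were all higher in the knockout. Psmb5 (ENSMUSG00000022193.6, chromosome 14 from 54614119 to 54618022), the chymotrypsin-like subunit, had normalised counts of 874, 813, 875 and 728 in the 4 wildtype hearts, in the order of their replicate numbers, and of 1405, 1473, 2196 and 1322 in the 4 knockout hearts. Every knockout library was above every wildtype library, and replicate 3 was the highest. The log2 fold change was 0.96 (standard error 0.172, DESeq2, adjusted p = 3.14e-07), a rise of 1.94-fold, and it was 0.77 without knockout replicate 3.

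Psmb6 (ENSMUSG00000018286.6, chromosome 11 from 70525367 to 70527858), the caspase-like subunit, had 1235, 1367, 1193 and 1222 normalised counts in the wildtype and 1525, 1462, 2089.7 and 1437 in the knockout. Psmb7 (ENSMUSG00000026750.6, chromosome 2 from 38588036 to 38644087), the trypsin-like subunit, had 1582, 1675, 1709.5 and 1581 in the wildtype and 1917, 2036, 2740.0 and 1763 in the knockout. Neither gene overlapped between the groups, but the 3 knockout libraries other than replicate 3 were close above the wildtype. The log2 fold change of Psmb6 was 0.38 (standard error 0.142, DESeq2, adjusted p = 0.0265), and that of Psmb7 was 0.37 (standard error 0.145, DESeq2, adjusted p = 0.0353). Each call was lost in several fits that left out 1 wildtype library, with an adjusted p of up to 0.0867 for Psmb6 and up to 0.108 for Psmb7 (DESeq2). That of Psmb7 was also lost without knockout replicate 2 (0.39, DESeq2, adjusted p = 0.0577). Without knockout replicate 3 both stayed called, at smaller values of 0.23 for Psmb6 and 0.22 for Psmb7 (DESeq2, adjusted p = 0.0237 and 0.0348). Scaled to totals Psmb5 stayed called with 0.65, while Psmb6 and Psmb7 had 0.07 and 0.06 (DESeq2, adjusted p = 0.689 and 0.738).

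The immunoproteasome subunits did not move together. Psmb10 (ENSMUSG00000031897.9, chromosome 8 from 105935735 to 105938444), which replaces Psmb7, had 327, 331, 452 and 440.3 normalised counts in the wildtype and 1101, 715, 709 and 748 in the knockout. The groups were separate, with knockout replicate 1 the highest. Its log2 fold change of 1.08 (standard error 0.189, DESeq2, adjusted p = 1.49e-07) was the third largest of the 26 called genes, a rise of 2.11-fold, and it was 1.14 without knockout replicate 3.

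Psmb8 (ENSMUSG00000024338.14, chromosome 17 from 34197721 to 34201454), which replaces Psmb5, had 169, 176, 154 and 198 normalised counts in the wildtype and 159, 145, 70.4 and 146 in the knockout. Knockout replicate 3 was far below the other 3 knockout libraries, of which 1 lay within the wildtype range. The log2 fold change was -0.42 (standard error 0.245, DESeq2, adjusted p = 0.18), with a 95% interval from -0.90 to 0.06. Leaving out that library gave -0.22 (DESeq2, adjusted p = 0.334). Scaled to totals Psmb8 passed the threshold (-0.70, DESeq2, adjusted p = 0.0231), and scaled to totals without mitochondrial rRNA its value was 0.02.

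Psmb9 (ENSMUSG00000096727.2, chromosome 17 from 34181987 to 34187764), which replaces Psmb6, had 86.5, 55.1, 81.5 and 104 normalised counts in the wildtype and 86.9, 43.8, 37.3 and 106 in the knockout. The groups overlapped, with knockout replicates 2 and 3 below the wildtype and replicate 4 above it. Its log2 fold change was -0.27 (standard error 0.355, DESeq2, adjusted p = 0.607), with a 95% interval from -0.97 to 0.42, and it was -0.07 without knockout replicate 3.

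**Figure D2:**
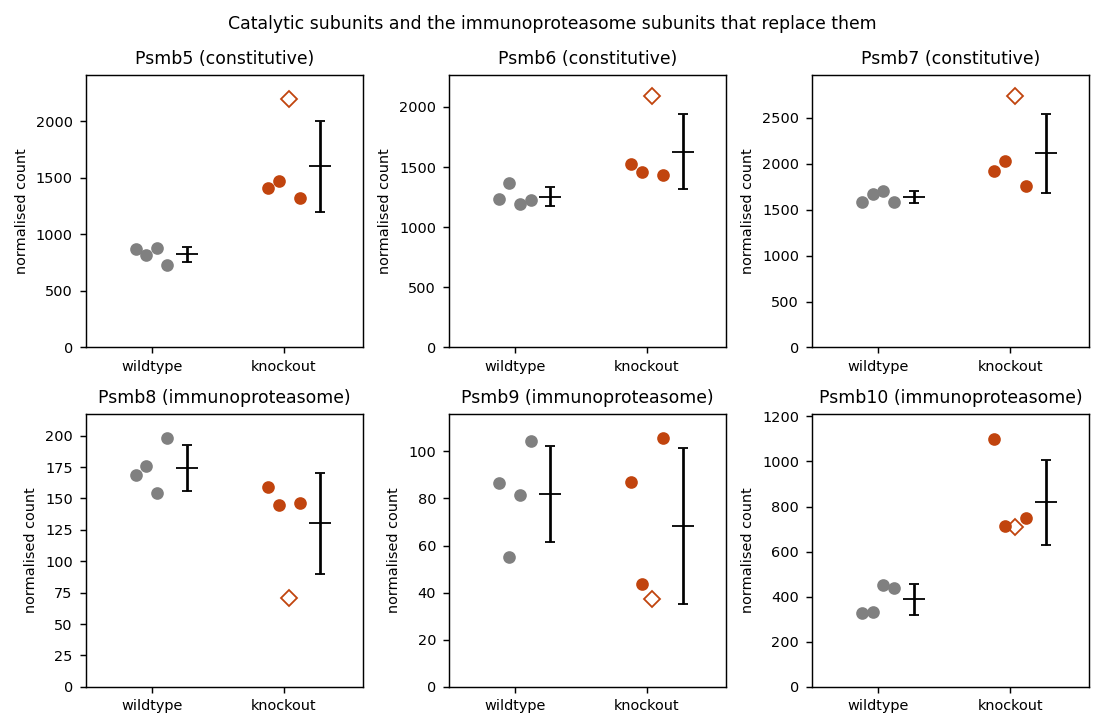
Normalised counts of the constitutive catalytic subunits (upper row) and of the immunoproteasome subunits that take their places (lower row), 1 point per library with the group mean and its SD (n = 4) as a bar beside the points; the open diamond is knockout replicate 3. Psmb5, Psmb6, Psmb7 and Psmb10 do not overlap between the groups, while Psmb8 and Psmb9 do.

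Levels of different genes were compared per length, as TPM. In the wildtype heart the constitutive subunits Psmb5, Psmb6 and Psmb7 stood at 32.2 ± 3.22, 56.8 ± 3.93 and 44.9 ± 2.18 TPM (SD, n = 4). Psmb8, Psmb9 and Psmb10 stood at 4.10 ± 0.371, 2.04 ± 0.482 and 14.5 ± 2.37 TPM (SD, n = 4). Transcripts of the constitutive subunits were thus the more abundant in each of the 3 pairs.

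The ratio of each immunoproteasome gene to the subunit it replaces was taken within each library, where the scaling between libraries cancels. Psmb8 amounted to 11.6, 13, 10.6 and 16.4% of Psmb5 in the wildtype libraries and to 6.83, 5.91, 1.93 and 6.65% in the knockout libraries. The groups did not overlap, and the lowest value was that of knockout replicate 3. The log2 difference of knockout from wildtype was -1.39 (two-sided exact permutation p = 0.0286, the smallest that 4 against 4 libraries allow, and adjusted p = 0.0857 over 3 ratios). Leaving out knockout replicate 3 made it -0.97. The adjusted value misses the threshold of 0.05.

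Psmb9 amounted to 3.63% ± 1.04 of Psmb6 in the wildtype and 2.46% ± 1.39 in the knockout (SD, n = 4). The groups overlapped, with a log2 difference of -0.68 (exact permutation test, two-sided p = 0.229, adjusted p = 0.229). Psmb10 amounted to 28.3, 27.1, 36.2 and 38.2% of Psmb7 in the wildtype and to 78.7, 48.2, 35.5 and 58.2% in the knockout. Only knockout replicate 3 lay within the wildtype range, and the log2 difference was 0.72 (exact permutation test, two-sided p = 0.0857, adjusted p = 0.129). Without that library it was 0.91 (exact permutation test, two-sided p = 0.0286, not adjusted). That p is the smallest the remaining libraries allow, and it follows from leaving out the only knockout library that overlapped.

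As a description chosen after the values were seen, Psmb10 was 3.1, 3.0, 4.7 and 3.5 times as abundant as Psmb8 in the wildtype libraries and 11, 7.9, 16 and 8.2 times as abundant in the knockout libraries, in TPM. Every knockout library had a higher ratio than every wildtype library.

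**Figure D3:**
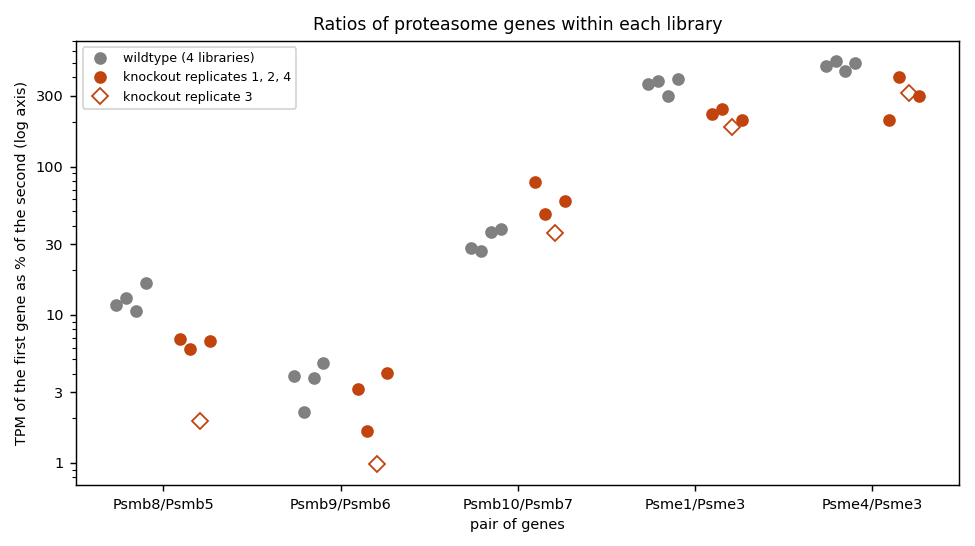
TPM of the first gene of each pair as a percentage of the second, on a log axis, with 1 point per library; grey points are the 4 wildtype libraries, filled orange points knockout replicates 1, 2 and 4, and open diamonds knockout replicate 3. Psmb8/Psmb5, Psme1/Psme3 and Psme4/Psme3 are lower in all 4 knockout libraries, and Psmb10/Psmb7 is higher in all but replicate 3.

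The other subunits of the 20S core rose or did not pass the threshold. Of the 14 constitutive core subunits 8 were higher and 0 lower (18.2% and 15.5% of all records), with a median log2 fold change of 0.37, and all 14 estimates were above 0. Without knockout replicate 3 there were 7 higher and 0 lower (19.4% and 17.2% of all records), and the median was 0.21. Scaled to totals 3 were higher and 1 was lower (9.64% and 29.6% of all records), the latter being Psma1 (-0.22, DESeq2, adjusted p = 0.0244).

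Among the 7 alpha subunits, which form the outer rings and the gate, Psma2, Psma5, Psma6 and Psma7 were higher. Psma5 (ENSMUSG00000068749.9, chromosome 3 from 108256926 to 108279974) had 504, 520.3, 496 and 492 normalised counts in the wildtype and 901, 932, 1042 and 1000.4 in the knockout. The knockout libraries were well above the wildtype and close to each other. The log2 fold change was 0.95 (standard error 0.0940, DESeq2, adjusted p = 4.62e-22), the lowest adjusted p of the 50 genes, and it was 0.91 without knockout replicate 3.

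Psma6 (ENSMUSG00000021024.14, chromosome 12 from 55384222 to 55418454) had 861, 875, 975 and 958 normalised counts in the wildtype and 1177, 1201, 1675 and 1108 in the knockout, with no overlap and replicate 3 far above the rest. On the log2 scale the rise was 0.49 (standard error 0.148, DESeq2, adjusted p = 0.00413), or 0.18 when scaled to totals (DESeq2, adjusted p = 0.234). Psma7 had 0.49 (standard error 0.153, DESeq2, adjusted p = 0.0055) and Psma2 had 0.30 (standard error 0.126, DESeq2, adjusted p = 0.0465). The call of Psma2 was lost in 10 of 16 alternatives, among them edgeR (adjusted p = 0.0534), scaling to totals (0.00060, DESeq2, adjusted p = 0.997), any omission of 1 wildtype library (DESeq2, adjusted p from 0.0898 to 0.13) and the omission of knockout replicate 2, 3 or 4 (DESeq2, adjusted p from 0.0508 to 0.0629). The estimates of the 3 alpha subunits that were not called, Psma1, Psma3 and Psma4, lay between 0.08 and 0.34, and between 0.06 and 0.21 without knockout replicate 3. Psma3 passed without knockout replicate 1 (0.42, DESeq2, adjusted p = 0.0235) and Psma4 without knockout replicate 2 (0.34, DESeq2, adjusted p = 0.0368). Psma3 is uncertain, since its pseudogene Gm13835 matches it at 100% over 685 bases and took 12.5% of the counts of the pair. With the copies summed Psma3 was 0.46 (DESeq2, adjusted p = 0.00139), which made it a called gene, while Gm6542, a copy of Psma4, took 1.05% of their counts.

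Of the 4 structural beta subunits, which carry no active site in the mature core, Psmb1 alone was called. Psmb1 (ENSMUSG00000014769.9, chromosome 17 from 15475021 to 15499751) had 1033, 1129, 1067 and 1081 normalised counts in the wildtype and 1774, 1895, 2645 and 1862 in the knockout. The groups did not overlap, and replicate 3 was the highest. On the log2 scale it rose by 0.92 (standard error 0.142, DESeq2, adjusted p = 1.47e-09), a rise of 1.90-fold. Psmb2, Psmb3 and Psmb4 had log2 fold changes of 0.20, 0.39 and 0.25, which did not pass (DESeq2, adjusted p = 0.24, 0.0712 and 0.181). Without knockout replicate 3 their values were 0.11, 0.18 and 0.10, while Psmb3 passed without knockout replicate 4 (0.48, DESeq2, adjusted p = 0.0318).

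Most subunits of the 19S regulatory particle rose. Of its 17 subunits 12 were higher and 0 lower (18.2% and 15.5% of all records), with a median log2 fold change of 0.59 and all 17 estimates above 0. Scaled to totals 8 were higher and 0 lower (9.64% and 29.6% of all records), and 11 were higher and 0 lower when knockout replicate 3 was left out (19.4% and 17.2%).

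Of the 6 ATPases, which form the ring that unfolds substrates, 5 were higher and 0 lower (18.2% and 15.5% of all records). Scaled to totals 3 were higher and 0 lower (9.64% and 29.6% of all records), the calls of Psmc4 and Psmc5 being lost. Psmc2 (ENSMUSG00000028932.7, chromosome 5 from 21785283 to 21803787) had 1101, 1029, 1066 and 1047 normalised counts in the wildtype and 1803, 1590.2, 2322 and 1781 in the knockout. Each knockout library exceeded each wildtype library. Psmc2 rose by 0.82 (standard error 0.129, DESeq2, adjusted p = 3.72e-09) on the log2 scale.

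Psmc6 (ENSMUSG00000021832.7, chromosome 14 from 45329788 to 45349705) had 1133, 1116, 1182 and 1156 normalised counts in the wildtype and 1662, 1598, 2389.9 and 1593 in the knockout, where replicates 1, 2 and 4 were nearly alike and replicate 3 was the highest. Psmc6 rose by 0.66 (standard error 0.148, DESeq2, adjusted p = 6.71e-05) on that scale. Psmc1 and Psmc4 had 0.75 and 0.59 (DESeq2, adjusted p = 0.000194 and 0.00296), and Psmc5 had 0.28 (DESeq2, adjusted p = 0.0285), a call that was lost when any 1 of the wildtype libraries was left out (DESeq2, adjusted p from 0.07 to 0.106). Psmc3 was the ATPase with the highest TPM in the wildtype, 53.1 ± 2.91 (SD, n = 4), and it was not called, with 0.11 (DESeq2, adjusted p = 0.586) and -0.03 without knockout replicate 3.

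Of the 11 non-ATPase subunits 7 were higher and 0 lower (18.2% and 15.5% of all records). Scaled to totals 5 were higher and 0 lower (9.64% and 29.6% of all records). Psmd8 (ENSMUSG00000030591.17, chromosome 7 from 29174188 to 29180701), a subunit of the lid, had 990.0, 1043, 1124 and 1100.3 normalised counts in the wildtype and 2911, 2935, 5384 and 3094 in the knockout. Knockout replicates 1, 2 and 4 lay close together, far above the wildtype, and replicate 3 was far above them. Its rise on the log2 scale was 1.75 (standard error 0.200, DESeq2, adjusted p = 7.40e-17), the largest of the 50 genes, a rise of 3.36-fold, and leaving out replicate 3 gave 1.48 (DESeq2, adjusted p = 1.14e-68). Per length, Psmd8 went from a mean of 24.5 to 74.3 ± 20.7 TPM (SD, n = 4), the highest knockout mean of the 50 genes.

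Psmd11 (ENSMUSG00000017428.16, chromosome 11 from 80428615 to 80473248), a scaffold of the lid, had 587, 645, 657 and 584 normalised counts in the wildtype and 1262, 1212, 1609 and 1363 in the knockout. The groups were far apart. It rose by 1.14 (standard error 0.121, DESeq2, adjusted p = 2.30e-19) on the log2 scale. Its mean transcript length, weighted by the isoforms found, was 2009 bases in the wildtype and 1835 in the knockout, with no overlap between the groups, where the length of 5.06% of all records did not overlap, and the length offset of the fit takes this into account.

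Psmd13, Psmd4 and Psmd14 followed with 0.82, 0.78 and 0.69. Psmd4 encodes a receptor for ubiquitin chains, with normalised counts of 1087 ± 50.1 in the wildtype and 1868 ± 472 in the knockout (SD, n = 4). Psmd14 encodes the enzyme that cuts ubiquitin off the substrate, with 555 ± 26.4 in the wildtype and 897 ± 115 in the knockout (SD, n = 4). Psmd12 and Psmd6, subunits of the lid, had smaller rises of 0.41 and 0.39. Scaled to totals both lost their calls, with 0.10 and 0.09 (DESeq2, adjusted p = 0.483 and 0.537). Psmd1, Psmd2, Psmd3 and Psmd7 were not called, with values between 0.15 and 0.27. Without knockout replicate 3, Psmd1, Psmd2 and Psmd3 stood at 0.10, 0.09 and 0.01. Psmd1 and Psmd2 are the large scaffolds of the base, and scaled to totals they stood at -0.03 and -0.07.

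Chaperones that assemble the complexes rose in part. Psmd9 (ENSMUSG00000029440.15, chromosome 5 from 123169413 to 123250131), which helps to build the ATPase ring, had 172, 177, 181 and 201 normalised counts in the wildtype and 316, 286, 382 and 241 in the knockout, with no overlap, and a log2 fold change of 0.74 (standard error 0.169, DESeq2, adjusted p = 8.64e-05). Psmd5 and Psmd10, chaperones of the same ring, were not called, with 0.38 and 0.37 (DESeq2, adjusted p = 0.128 and 0.0971). In Psmd5, wildtype replicate 1 stood at 397 against at most 259 in the other wildtype libraries, and without it Psmd5 was 0.59 and passed the threshold (DESeq2, adjusted p = 0.00104).

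Of the 4 chaperones of the 20S core, Psmg2 and Psmg4 were higher. Psmg2, which works with Psmg1 in the assembly of the alpha ring, had 212, 211, 222 and 219 normalised counts in the wildtype and 363, 268, 413 and 357 in the knockout. Psmg4, the partner of Psmg3, had 71.8, 68.4, 53.3 and 71.8 in the wildtype and 93.8, 109, 115 and 95.4 in the knockout. Neither overlapped between the groups, and the log2 fold changes were 0.70 (standard error 0.154, DESeq2, adjusted p = 4.79e-05) and 0.64 (standard error 0.198, DESeq2, adjusted p = 0.00541). Psmg1 and Psmg3 had 0.26 and 0.20 (DESeq2, adjusted p = 0.214 and 0.501), so that in each of these pairs of partners 1 was called and the other was not, a difference that was not tested.

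The activators cap the core in place of the 19S particle. Of 5 genes 0 were higher and 2 lower, where 15.5% of all records were lower. Psme2b, a near copy of Psme2, was low, with 45.2 ± 5.69 normalised counts in the wildtype and 33.8 ± 10.5 in the knockout (SD, n = 4), and was not called (-0.41, DESeq2, adjusted p = 0.314, and -0.23 with knockout replicate 3 omitted). Psme1 (ENSMUSG00000022216.16, chromosome 14 from 55578123 to 55581529), of the 11S activator that interferon gamma is known to induce, had 1159.6, 1126, 981 and 1152 normalised counts in the wildtype and 851, 766, 809 and 747 in the knockout. All knockout libraries were below all wildtype libraries, and replicate 3 lay within the other knockout values. Psme1 changed by -0.48 (standard error 0.101, DESeq2, adjusted p = 1.76e-05) on the log2 scale. Scaled to totals it had -0.78, and scaled to totals without mitochondrial rRNA it had -0.05 and lost its call (DESeq2, adjusted p = 0.691). The partner of Psme1 in the same ring, Psme2, had 389, 394, 373 and 394 in the wildtype and 352, 351, 333 and 301 in the knockout, again without overlap, and a log2 fold change of -0.21 (standard error 0.109, DESeq2, adjusted p = 0.12). Psme2 shares 99.4% of 794 aligned bases with Psme2b, which took 9.98% of their summed counts, and with both summed the value was -0.24 (DESeq2, adjusted p = 0.0564).

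Psme4 (ENSMUSG00000040850.17, chromosome 11 from 30771726 to 30880361), which encodes the activator PA200, had 9365, 9283, 8803 and 8962 normalised counts in the wildtype and 4671, 7699, 8293 and 6575 in the knockout. The groups did not overlap, and knockout replicate 1 was the lowest. Psme4 changed by -0.42 (standard error 0.166, DESeq2, adjusted p = 0.0369) on the log2 scale. The call was lost without any 1 of the wildtype libraries (DESeq2, adjusted p from 0.0661 to 0.0987), without knockout replicate 4 (DESeq2, adjusted p = 0.0917) and without the length offset, and scaled to totals without mitochondrial rRNA the value was 0.0015. Psme3, the nuclear 11S activator, had 685 ± 38.5 in the wildtype and 821 ± 114 in the knockout (SD, n = 4) and was not called (0.26, DESeq2, adjusted p = 0.0954), with 0.17 when knockout replicate 3 was left out. It was called higher with totals that excluded mitochondrial rRNA (0.68, DESeq2, adjusted p = 8.01e-10). There 1 activator was higher and 0 were lower (38.9% and 5.43% of all records). Psme3 was also called higher without knockout replicate 2 (0.34, DESeq2, adjusted p = 0.0259).

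Both called activators were also set against Psme3 within each library, as a description without a test, since the pairs were formed with the direction of these genes known. Psme1 amounted to 360.0, 379.6, 299 and 392% of Psme3 in the wildtype and to 227, 244, 184 and 207% in the knockout, in TPM. There was no overlap, and the log2 difference was -0.73. Psme4 amounted to 480.0, 517, 443 and 503% of Psme3 in the wildtype and to 206, 404, 312 and 301% in the knockout, a log2 difference of -0.70, and from -0.74 to -0.67 when any 1 of the wildtype libraries was left out.

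Psmf1, an inhibitor of the core, had 284 ± 25.9 normalised counts in the wildtype and 369 ± 94.3 in the knockout (SD, n = 4) and was not called (0.38, DESeq2, adjusted p = 0.0996), with 0.19 once knockout replicate 3 was omitted. The subunits of other tissues were barely detected. Psma8, the alpha subunit of the testis, had 11.7, 11.6, 9.54 and 4.82 normalised counts in the wildtype and 14.5, 16.2, 28.8 and 16.9 in the knockout, and Psmb11, the catalytic subunit of the thymus, had 20.1 to 40.2 and 17.9 to 49.6. Neither passed the threshold (DESeq2, adjusted p = 0.0825 and 0.673). Psmc3ip had 23.2 ± 5.56 and 22.5 ± 4.29 (SD, n = 4) and stood at -0.05 on the log2 scale (DESeq2, adjusted p = 0.934).

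**Figure D4:**
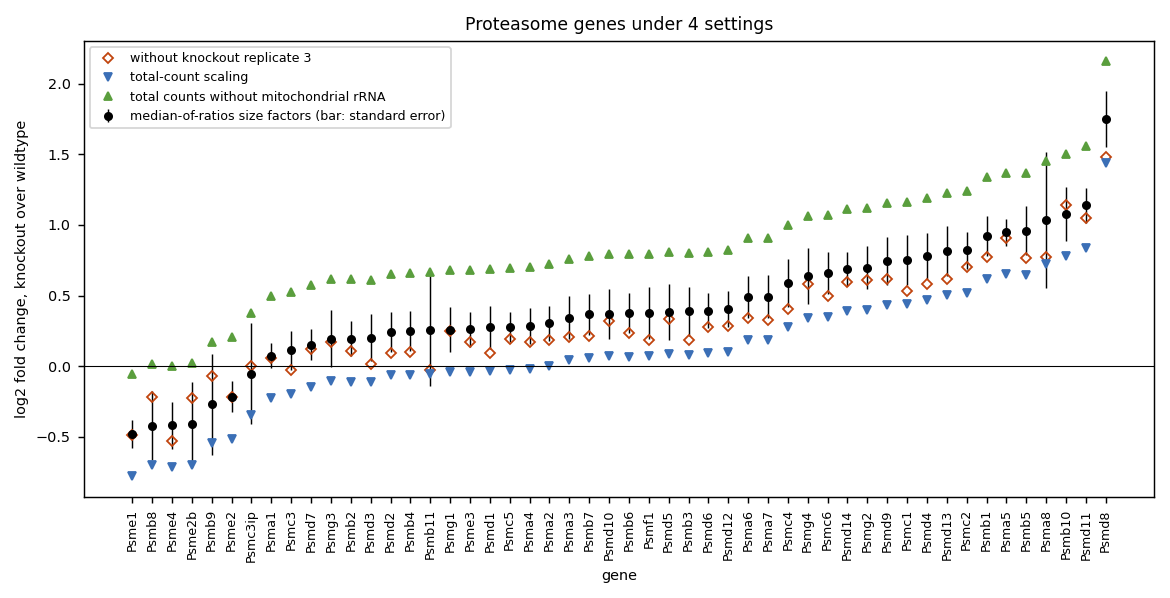
Log2 fold change of each of the 50 genes, ordered by the value with median-of-ratios size factors (black points, bars are standard errors), beside the value without knockout replicate 3 (open diamonds), with total-count scaling (triangles pointing down) and with total counts that leave out mitochondrial rRNA (triangles pointing up). Under each of the 3 scalings Psmd8 is the highest and Psme1 the lowest of the 50. A change of scaling moves all genes by nearly the same amount, so it hardly alters their order.

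Proteins that work with the proteasome but carry other names were tested beside it. Of 13 such genes 4 were higher (30.8%, against 18.2% of all records) and 0 lower, with a median log2 fold change of 0.13. Scaled to totals 1 was higher and 5 were lower (9.64% and 29.6% of all records), and 10 were higher and 0 lower when the totals excluded mitochondrial rRNA (38.9% and 5.43% of all records). The largest rise was that of Zfand2a, a stress-induced proteasome-binding protein, from 275 ± 29.8 to 427 ± 56.6 normalised counts (SD, n = 4), a log2 fold change of 0.64 (standard error 0.147, DESeq2, adjusted p = 0.000103). Usp14, a deubiquitinase of the 19S particle, had 0.44, Txnl1, a thioredoxin bound to it, had 0.35, and Sem1, its smallest subunit, had 0.32 (DESeq2, adjusted p = 0.000534, 0.00287 and 0.015). The ubiquitin receptor Adrm1 and Pomp, the maturation factor of the core, had 0.23 and 0.13 and were not called (DESeq2, adjusted p = 0.27 and 0.359), and Adrm1 had 0.06 without knockout replicate 3.

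Factors known to act on proteasome genes were compared as well. Of 13 tested 5 were higher and 2 lower (38.5% and 15.4%, against 18.2% and 15.5% of all records). Scaled to totals the counts were 3 and 3 (9.64% and 29.6% of all records), and scaled to totals without mitochondrial rRNA they were 9 and 0 (38.9% and 5.43% of all records). Nfe2l1, which is known to raise proteasome transcripts when proteasome activity falls short, had 7948, 8409.8, 8652 and 8446 normalised counts in the wildtype and 9100.4, 7806, 11888 and 8118 in the knockout. Its groups overlapped, replicate 3 was again the highest knockout library, and its log2 fold change was 0.14 (standard error 0.141, DESeq2, adjusted p = 0.48), which became -0.0049 without that library. Nfe2l2, the factor of the oxidative stress response, had 1073, 914, 1112 and 957 in the wildtype and 1533, 1585, 1744 and 1281 in the knockout, with no overlap and 0.60 (standard error 0.126, DESeq2, adjusted p = 1.93e-05). The small Maf genes Maff and Mafk, whose products pair with both, had 1.70 and 1.63 (DESeq2, adjusted p = 4.39e-08 and 6.27e-19). Nfyb and Nfyc, subunits of NF-Y, were lower, with -0.55 and -0.49.

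Of 15 genes of ubiquitin, its activation and its delivery 8 were higher and 1 lower (53.3% and 6.67%, against 18.2% and 15.5% of all records), with a median log2 fold change of 0.38. Scaled to totals 4 were higher and 3 lower (9.64% and 29.6% of all records), and with the totals that excluded mitochondrial rRNA 14 were higher and 0 lower (38.9% and 5.43% of all records). Nploc4 and Ufd1, cofactors of the segregase Vcp, had 0.91 and 0.68, and Rps27a, which encodes ubiquitin fused to a ribosomal protein, had 0.87 (DESeq2, adjusted p = 1.72e-05, 0.000386 and 1.74e-16). Ubqln2, a shuttling factor, fell by 0.55 on the log2 scale. Its call was lost with the replicate block (DESeq2, adjusted p = 0.122) and with totals that excluded mitochondrial rRNA (-0.13, DESeq2, adjusted p = 0.656). Of 10 ubiquitin ligases of muscle 2 were higher and 2 lower, shares near the 18.2% and 15.5% of all records. Scaled to totals 1 was higher and 6 lower (9.64% and 29.6% of all records), and scaled to totals without mitochondrial rRNA 5 were higher and 0 lower (38.9% and 5.43% of all records). Trim54 rose by 1.10 and Fbxo30 by 0.51, Fbxo21 had -0.57, and the atrophy ligases Fbxo32 and Trim63 were not called, with 0.03 and -0.21 (DESeq2, adjusted p = 0.966 and 0.293). Without knockout replicate 3, Fbxo32 stood at -0.42 (DESeq2, adjusted p = 0.32) and Trim63 at -0.31, which was then called lower (DESeq2, adjusted p = 0.0436).

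The neighbours of the immunoproteasome in antigen processing were lower or not called. Of 14 genes of MHC class I antigen processing 0 were higher and 6 lower (42.9%, against 15.5% of all records). Tap1 and Tap2, the peptide transporter, lie beside Psmb8 and Psmb9 in the MHC region. Tap1 had 190.0, 207, 197 and 327 normalised counts in the wildtype and 154, 139.7, 158 and 173 in the knockout, with -0.56 (standard error 0.208, DESeq2, adjusted p = 0.0248). Tap2 had 342, 332, 388 and 419 and 296, 216, 238 and 309, with -0.48 (standard error 0.160, DESeq2, adjusted p = 0.00952). For both genes the knockout libraries lay below the wildtype libraries. Tapbp, which holds empty MHC class I molecules at the transporter, had -0.54, and H2-Q7, a class I gene, had -0.52. Scaled to totals without mitochondrial rRNA, 5 of the 14 genes were higher and 0 lower, where 38.9% of all records were higher, and scaled to totals 0 were higher and 9 lower, where 29.6% of all records were lower. Relative to the median record, the median of the list was -0.28 with median-of-ratios size factors and -0.29 with either total. These values had to be close, since a change of scaling moves every record by nearly the same amount.

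Of 17 genes of the interferon response 1 was higher and 7 lower (5.88% and 41.2%, against 18.2% and 15.5% of all records), with a median of -0.60. Scaled to totals 0 were higher and 10 lower (9.64% and 29.6% of all records), and scaled to totals without mitochondrial rRNA 1 was higher and 2 were lower (38.9% and 5.43% of all records). Igtp and Gbp2, interferon-induced GTPases, fell from 268 ± 46.1 to 95.4 ± 21.4 and from 338 ± 69.6 to 169 ± 50.2 normalised counts (SD, n = 4), log2 fold changes of -1.49 and -1.01 (DESeq2, adjusted p = 6.19e-11 and 0.000283). Irf8, a factor of myeloid cells, had 0.76. The summed counts of the list were 3179.9 to 4066 in the wildtype and 3184, 2699, 1706 and 2279.8 in knockout replicates 1 to 4. Psmb10, which interferon gamma is also known to induce, was higher in the knockout, while Psme1, Tap1 and Tap2 were lower. The part of interferon in these values was not tested.

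Immunoproteasome genes are highly expressed in leukocytes, so markers of other cells are given beside them. Of 23 leukocyte markers tested 9 were higher (39.1%, against 18.2% of all records) and 0 lower, with log2 fold changes of 1.42 for Cd68, 1.2 for Itgam and 0.80 for Coro1a, of which Itgam and Coro1a overlapped between the groups and lost their calls with the replicate block (DESeq2, adjusted p = 0.256 and 0.0965). Cd74, H2-Ab1 and H2-Aa, of MHC class II, were not called, with -0.50, -0.21 and -0.14. Scaled to totals 5 leukocyte markers were higher (9.64% of all records), and 12 with totals that excluded mitochondrial rRNA (38.9% of all records). Without knockout replicate 3 there were 13 (19.4% of all records). Markers of T cells were scarce, with mean normalised counts of 0.659 and 3.08 for Cd3e and 4.83 and 5.30 for Cd8a in wildtype and knockout. Summed over the list, knockout replicates 1, 2 and 4 lay above the wildtype and replicate 3 below it. For Psmb8 replicate 3 was the lowest of the 8, but replicates 1, 2 and 4 (159, 145 and 146) were not above the wildtype (154 to 198). For Psmb10 replicate 3 lay above the wildtype. Of 7 fibroblast markers 4 were higher (57.1%, against 18.2% of all records) and 0 lower, led by Postn, Col3a1 and Col1a1 with 2.66, 1.62 and 1.48. Their summed counts were 18172 to 18946 in the wildtype and 19171 to 64147 in the knockout, 2 of the 7 did not overlap between the groups, and 3 were called with the replicate block. Of 7 endothelial markers 0 were called by DESeq2 and 0 by edgeR (2 at an unadjusted p under 0.05 by DESeq2). Without knockout replicate 3, 2 were higher (19.4% of all records), and scaled to totals 2 were lower (29.6% of all records). With totals that excluded mitochondrial rRNA 4 were higher (38.9% of all records), and with the replicate block 1 was lower. The part of these cells in the values of the proteasome genes was not tested.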

How the data were processed

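RNA was isolated from whole hearts and sequenced with random hexamers after depletion of cytoplasmic rRNA. The authors aligned the stranded paired-end reads with Bowtie2 and quantified them with RSEM 1.2.31 (mm10) against GENCODE M13 transcripts plus their own mitochondrial sequences with 50 adenines added. The deposited file of each library holds expected counts, in which RSEM divided reads that match several genes, with gene lengths in bases. The same deposited files hold TPM, which the authors' run of RSEM scaled for length and depth. Per the file headers, 2 further tables of the whole series exist, and neither was used. The 8 columns of the authors' normalised counts match no sample label, and the other table holds a mean, fold changes and p-values of the authors' own comparison.

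Expected counts were rounded and fitted with DESeq2 1.42.0 in R 4.3.3 on genotype alone, with size factors by the median of ratios and an offset for gene length, after the tximport 1.4.0 and DESeq2 1.16.1 route of the methods. Adjusted p is Benjamini-Hochberg over all 19959 records tested, with a threshold of 0.05. A 95% interval is the estimate with its Wald error. Normalised counts are divided by the size factors and lengths. Ratios are of TPM with a pseudocount of 0.1, those of the immunoproteasome genes tested by enumeration of all 70 assignments of the libraries, and levels at low counts carry counting error. Symbols and gene types came from GENCODE M21, which held 50339 of the 50563 Ensembl records. Copies were found with blastn 2.17.0 (at least 95% identity over 200 bases). Scripts were tested on simulated data.

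The alternatives tried were the quasi-likelihood test of edgeR 4.0.16 (TMM), a fit without the length offset, a minimum of 10 counts in 4 libraries, size factors of nuclear genes only, library totals with and without mitochondrial rRNA, summed copies, a replicate block and the omission of each library. For ratios a pseudocount of 1 TPM and expected counts per length were tried. Every gene the rule finds was named. Values per library are given for the catalytic and immunoproteasome subunits and, in each other class, for the 2 called genes with the lowest adjusted p, and for Nfe2l1, Tap1 and Tap2. Adrm1, Sem1, Pomp and, from each other list, the 3 largest called changes among genes of 100 or more mean normalised counts are named with their fold changes. The genes and lists were chosen with earlier results of these data known. Each library is 1 animal, so p-values judge the difference between the groups against the spread between animals of a group.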

Additional observations from a re-analysis of the deposited data

Results flagged for a closer look

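By Dixon's 95% criterion, 1 library stood far from its 3 companions in 18 of 112 groups of values, where chance gives about 1 in 20 or 5.6. Of the 18, 16 were knockout replicate 3. The groups are not independent, since all genes come from the same 8 libraries.

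Knockout replicate 3 was far above the other knockout libraries in subunits of the core. Its normalised count was 1398 for Psma2 (others 1018 to 1063), 1675 for Psma6 (1108 to 1201), 28.8 for the testis subunit Psma8 (14.5 to 16.9), 2645 for Psmb1 (1774 to 1895), 1376 for Psmb3 (805 to 881) and 2090 for the catalytic Psmb6 (1437 to 1525).

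It was also far above in the 19S particle. There it had 1232 for Psmc5 (others 987 to 1016), 2390 for Psmc6 (1593 to 1662), 3084 for Psmd1 (1945 to 2077), 1691 for Psmd12 (1196 to 1274), 2574 for the ubiquitin receptor Psmd4 (1594 to 1664), 1246 for Psmd6 (917 to 952) and 5384 for Psmd8 (2911 to 3094). The inhibitor Psmf1 had 510.5 (314 to 327).

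The same library was far below the others for the immunoproteasome subunit Psmb8, with 70.4 normalised counts against 145 to 159, and its log2 ratio of Psmb8 to Psmb5 was -5.59 against -4.04 to -3.83. Knockout replicate 1 was far above the other knockout libraries for Psmb10, with 1101 against 709 to 748. For Lrpprc, knockout replicate 2 was the lowest with 504.3, where the other knockout libraries had 597 to 605. No reason for these values was tested.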

How the results depend on the processing

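Of the 26 called genes, 14 kept call and direction under every alternative run. Scaling moved the counts most. Scaled to totals, 1924 records were higher and 5912 lower over all genes, 14 proteasome genes were higher and 5 lower, and 7 muscle ligases were called. Scaled to totals without mitochondrial rRNA, 7950 records were higher and 1111 lower, 42 proteasome genes were higher and 0 lower, and 10 proteasome partners, 14 ubiquitin genes and 3 interferon genes were called. Without the length offset 1 proteasome gene was lower. Leaving out 1 library at a time left 1 to 2 lower, the fall of Psme4 being the one lost.

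Scaled to totals, negative values replaced positive ones for Psme3 (-0.042), Psmc3 (-0.20), Psmc5 (-0.024), Psmd1 (-0.034), Psmd2 (-0.066), Psmd3 (-0.11), Psmd7 (-0.15), Psma1 (-0.22), Psma4 (-0.020), Psmg1 (-0.041), Psmg3 (-0.10), Psmb2 (-0.11), Psmb4 (-0.061) and Psmb11 (-0.052). Scaled to totals without mitochondrial rRNA, positive values replaced negative ones for Psme2 (0.21), Psme2b (0.022), Psme4 (0.0015), Psmb8 (0.017), Psmb9 (0.17) and Psmc3ip (0.37).

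Over the omissions of 1 library, Psmc3 ranged from -0.027 to 0.19, Psmb11 from -0.026 to 0.49 and Psmc3ip from -0.17 to 0.063. The log2 ratio of Psmb10 to Psmb7 ranged from 0.53 to 0.91, the latter without knockout replicate 3, and that of Psme4 to Psme3 from -0.85 to -0.53. Why single libraries mattered was not tested.

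Replicate numbers did not pair the libraries. Deviations from the group means of same-numbered libraries correlated at -0.014, -0.044, -0.074 and 0.072, and not every library correlated best with its own number. With the replicate block 20 proteasome genes were higher and 2 lower, against 24 and 2 without it, and the calls of Psmb6, Psmc5, Psma2 and Psmg4 were lost. Shares of all records called with the block are not given, so the change from 24 to 20 is not read as particular to these genes. For ratios the block allows no p below 0.125 by exact permutation. Depth limits Psma8, Psmb11 and Psmc3ip, and, among the immunoproteasome genes, Psmb9.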

Other observations

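The transcripts of core subunits were present at unequal levels. Per length, the 14 constitutive core subunits had group means from 12.9 TPM for Psma5 to 56.8 TPM for Psmb6 in the wildtype, and from 22.7 TPM for Psma5 to 66.7 TPM for Psmb6 in the knockout, so the same genes marked both ends. The median over these subunits was 34.0 TPM in the wildtype and 38.7 TPM in the knockout. In the 19S particle the wildtype means ran from 9.74 TPM for Psmd11 to 53.1 TPM for Psmc3. In the knockout they ran from 12.2 TPM for Psmd7 to 74.3 TPM for Psmd8. Psmd11 was the least abundant 19S transcript in the wildtype heart and was not so in the knockout heart, where its mean was 19.5 TPM.

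In 7 genes the mean transcript length, weighted by the isoforms that RSEM found, did not overlap between the groups, where that of 5.06% of all records tested did not, a share that includes genes with a single isoform, whose length cannot differ. It was shorter in the knockout for Psma4 (1096 and 1064 bases in wildtype and knockout), Psmc2 (2061 and 1893) and Psmd11 (2009 and 1835). It was longer in the knockout for Psmc3 (1344 and 1416), Psmc4 (1399 and 1417), Psme2 (879 and 928) and Psmg1 (994 and 1031). Which isoforms changed was not examined.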
